A study of Mus musculus with 2 samples.

Results

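Known spliced transcripts of at least 5000 bases were examined in mouse heart with long-read RNA sequencing. A transcript belonged to the set when a deposited table listed it as known in the annotation, with at least 2 exons, an annotated length of at least 5000 bases and a gene other than a spike-in RNA. The rule used length and class and no read count, and found 1716 of the 17830 known transcripts with reads in at least 1 library, from 1559 genes. The samples were 1 group of 2 heart libraries from male B6CASTF1/J mice aged 2 months, a first-generation hybrid of a C57BL laboratory strain and the wild-derived CAST strain. Each library was made from 2 µg of total RNA, and the labels name no treatment or mutation. The biosample labels named animals 03 and 04, but the library description gave both libraries animal number 03, so the spread between replicate 1 and replicate 2 may be technical.

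A transcript of this size can be long in different ways. Some encode a giant protein, such as a myosin heavy chain or a laminin, and carry many coding exons. Others encode an ordinary protein and end in a 3′ untranslated region of several kilobases, the stretch after the stop codon where microRNAs and RNA-binding proteins act. In long-read sequencing each read is meant to follow 1 RNA molecule, so the exons it joins are seen together. TALON, the program named in the deposited annotation as the source of the models, gives a read to a known transcript when its introns match, while its ends may differ from the annotated ends. The annotated length is therefore a property of the model and not of the read, and all 17830 annotated lengths matched GENCODE M21. The bases of exon between the first and the last intron, called internal bases below, are the shortest stretch that a read must cover to follow every annotated intron.

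Exons that some transcripts of a gene include and others skip can be followed read by read in such data. Sequences of 4 of them are shown because they are what separates the isoforms counted further on. They come from the GENCODE M21 transcripts (mm10) and read 5′ to 3′ on the strand of the gene. Capitals mark the 3 exon bases next to each splice site. The Slc30a9 and Myom1 exons are among the 8 tested exons with most reads, and the Mef2a and Vldlr exons were added after their values were seen, as coding exons of genes on the lists described below. Slc30a9, a zinc transporter of mitochondria, includes or skips the 60 bases of exon 3 (chr5:67324674-67324733, plus strand). Myom1, the M-band protein myomesin, includes or skips the 294 bases of exon 18 (chr17:71082203-71082496, plus strand), the exon of the embryonic heart form of the protein. Mef2a, a transcription factor of muscle genes, includes or skips the 24 bases of exon 9 (chr7:67244521-67244544, minus strand). Vldlr, the receptor for very low density lipoprotein, includes or skips the 84 bases of exon 16 (chr19:27246593-27246676, plus strand), which encodes the sugar-carrying stretch outside the membrane.
Slc30a9 exon 3: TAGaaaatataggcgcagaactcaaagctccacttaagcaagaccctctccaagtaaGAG
Myom1 exon 18: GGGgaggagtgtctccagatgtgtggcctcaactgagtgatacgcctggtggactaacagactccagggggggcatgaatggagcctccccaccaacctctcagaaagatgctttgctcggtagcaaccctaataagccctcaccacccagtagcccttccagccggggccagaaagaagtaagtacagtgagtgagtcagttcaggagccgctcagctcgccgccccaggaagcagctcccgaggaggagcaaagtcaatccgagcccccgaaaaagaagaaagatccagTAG
Mef2a exon 9: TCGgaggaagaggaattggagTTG
Vldlr exon 16: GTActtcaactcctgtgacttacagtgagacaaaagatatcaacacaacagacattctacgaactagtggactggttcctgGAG

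Replicate 1 held 430251 reads of annotated nuclear genes and replicate 2 held 629896, and levels are given in CPM, counts per 1000000 of these totals. A read counted as 1 transcript whatever its length, so CPM was not divided by length, and how well long molecules were recovered was not measured. Where no read was found, up to 3 reads remain possible, equal to 6.97 CPM for replicate 1 and 4.76 CPM for replicate 2. All 9 cardiomyocyte markers were read, with summed levels of 51228 CPM in replicate 1 and 43856 CPM in replicate 2. The 5 erythroid markers summed to 13799 CPM in replicate 1 and 3663 CPM in replicate 2. Of the skeletal muscle markers, Myh1, Myh2, Myh4 and Ryr1 were at 0 in both libraries. In a tissue, fewer cells of a type and less RNA per cell cannot be told apart.

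Of the 1716 long transcripts, 1393 were read in replicate 1, 1460 in replicate 2 and 1137 in both. Beside them, 11878 of all 17830 known transcripts and 10095 of the 14859 shorter spliced ones were read in both. The 256 long transcripts read in replicate 1 alone had at most 7 reads each, and the 323 read in replicate 2 alone had at most 9. At least 10 summed reads were reached by 503, the remaining 1213 had fewer, and 421 rested on 1 read. Nearly all were annotated as protein-coding (1686 of 1716). The median annotated length was 6195 bases, with quartiles of 5496 and 7206, and the median number of exons was 15. The 3′ untranslated region was longer than the coding part in 1022 of the 1692 transcripts with a coding part, with medians of 3462 bases of 3′ untranslated region and 2463 coding bases. In 1073 of the 1716 (62.5%), the last exon alone made up at least 50% of the transcript. A coding part of at least 5000 bases was found in 222 (12.9%).

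Within the classes of at least 5000 bases, the share of annotated transcripts that were read was lowest at 10000 bases or more. At least 1 read was found for 1716 of the 6784 annotated spliced transcripts of at least 5000 bases (25.3%), and for 13.7% of the 108270 shorter ones. By class, the share was 28.6% at 5000 to 5999 bases, 29.0% at 6000 to 6999, 23.8% at 7000 to 7999, 20.7% at 8000 to 9999 and 12.0% at 10000 bases or more. Just under the minimum, at 4000 to 4999 bases, it was 29.8%. Further down it was 27.0% at 3000 to 3999, 23.5% at 2000 to 2999 and 18.2% at 1000 to 1999. Of the 108270 shorter transcripts, 54764 measure under 1000 bases, and only 2739 of these were read. The pooled 13.7% therefore mixes classes with very different shares. Within the long set the share was highest at 500 to 999 internal bases, 43.4% of 502 annotated transcripts, and lowest at 5000 internal bases or more, 12.4% of 1350. It was 21.4% of 1016 in those with under 500 internal bases, so it did not fall steadily over the whole range.

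**Figure D1:**
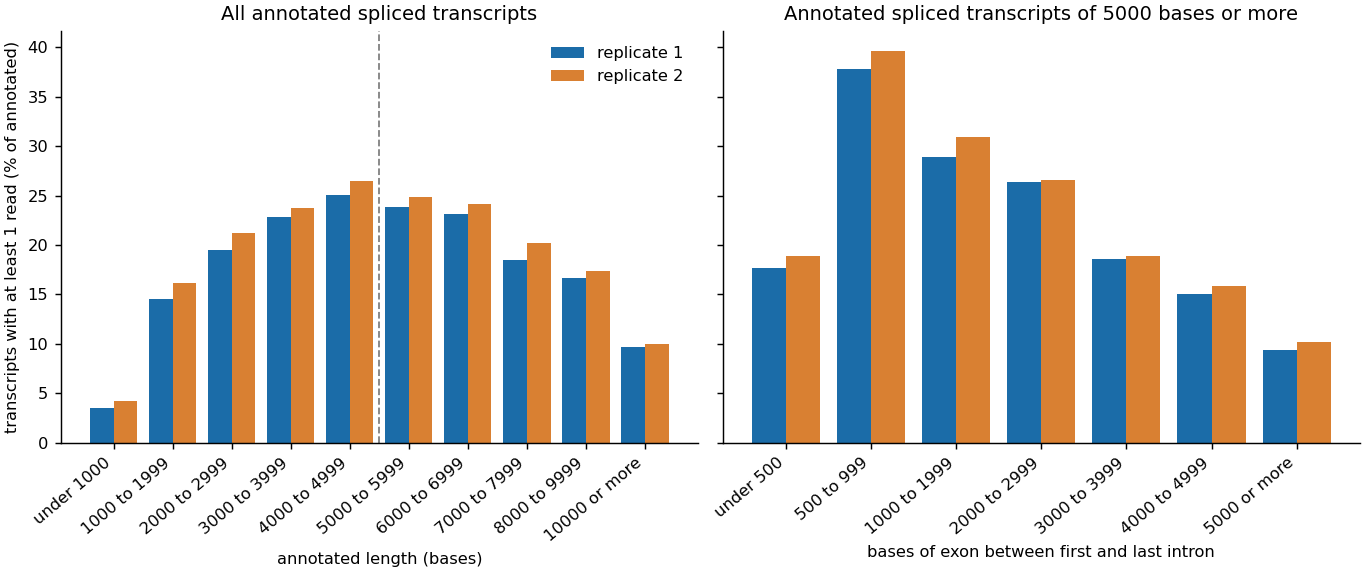
Share of annotated spliced transcripts with at least 1 read, in percent, by annotated length (left, all lengths, with a dashed line at 5000 bases) and, for those of 5000 bases or more, by bases of exon between the first and the last intron (right); bars are the 2 libraries. In the class of 10000 bases or more 9.70% were read in replicate 1 and 9.99% in replicate 2.

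Long transcripts held 20919 of 315669 known spliced reads in replicate 1, 6.63% (Clopper-Pearson 95% interval 6.54 to 6.71), and 25250 of 461849 in replicate 2, 5.47% (5.40 to 5.53). The mean was 6.05% ± 0.820 (SD, n = 2). Both intervals and floors cover counting error only. Myh6, the alpha myosin heavy chain that drives contraction in the adult mouse heart, supplied 38.1% of the long reads in replicate 1 and 33.0% in replicate 2. With Myh6 left out of both counts, an alternative added after the data were seen, long transcripts held 4.21% in replicate 1 and 3.73% in replicate 2. The 20 transcripts with the highest mean CPM supplied 51.8% of the long reads in replicate 1 and 48.2% in replicate 2.

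Myh6 was read as 2 long transcripts with 39 exons each on chromosome 14 (mm10, minus strand). Myh6-201 spans chr14:54941921-54966641, measures 6113 bases and encodes 5817 of them, with 5944 internal bases. It had 6111 reads (14203 CPM) in replicate 1 and 6298 reads (9998 CPM) in replicate 2. Myh6-205, which differs mainly in untranslated bases at its 5′ end, had 1856 reads (4314 CPM) in replicate 1 and 2043 reads (3243 CPM) in replicate 2. Myh6-205 took 23.3% of the long Myh6 reads in replicate 1 and 24.5% in replicate 2, so both libraries split the gene in nearly the same proportion. Both transcripts were higher in replicate 1, Myh6-201 by 0.51 and Myh6-205 by 0.41 on the log2 scale. Myh6 and Myh7 are close copies, and the split of reads between them is the authors' own.

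The other 18 of the 20 highest had mean levels between 244.6 and 794 CPM, and their make-up fell into the same kinds as the whole set. In 13 of the 20 the 3′ untranslated region was longer than the coding part. Eif4g2-213, which encodes a translation initiation factor related to eIF4G, had 383 reads (890 CPM) in replicate 1 and 439 reads (697 CPM) in replicate 2. Its 7995 bases hold 2721 coding bases and 4942 bases of 3′ untranslated region. Sod2-201, for the manganese superoxide dismutase of mitochondria, had 295 reads (686 CPM) in replicate 1 and 412 reads (654 CPM) in replicate 2, with 669 coding bases in a transcript of 5861. Glo1-206, for glyoxalase 1, had 156 reads (363 CPM) in replicate 1 and 230 reads (365 CPM) in replicate 2. It is annotated at 9865 bases, of which 555 are coding and 9202 are 3′ untranslated, and 382 internal bases suffice to follow all its introns. The catalytic phosphatase subunits Ppp2ca-201 and Ppp1cb-201 had 196 and 177 reads in replicate 1, and 318 and 282 reads in replicate 2. The levels of Sod2-201 and Glo1-206 in the 2 libraries lay close together, while those of Eif4g2-213 and Myh6 lay further apart.

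Among the 20 highest, 7 had a coding part at least as long as the 3′ untranslated region. Among them were Myh6-201, Myh6-205, Col3a1-201, Ltbp4-205, Myom2-201 and Srl-201. Their log2 ratios, replicate 1 over replicate 2, ran from 0.08 to 0.69, and all 7 were higher in replicate 1. The 13 with a longer 3′ untranslated region ran from −0.32 in Timm17a-201, part of the mitochondrial import machinery, to 0.51 in Slc30a9-204, and 6 of them were lower in replicate 1.

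**Figure D2:**
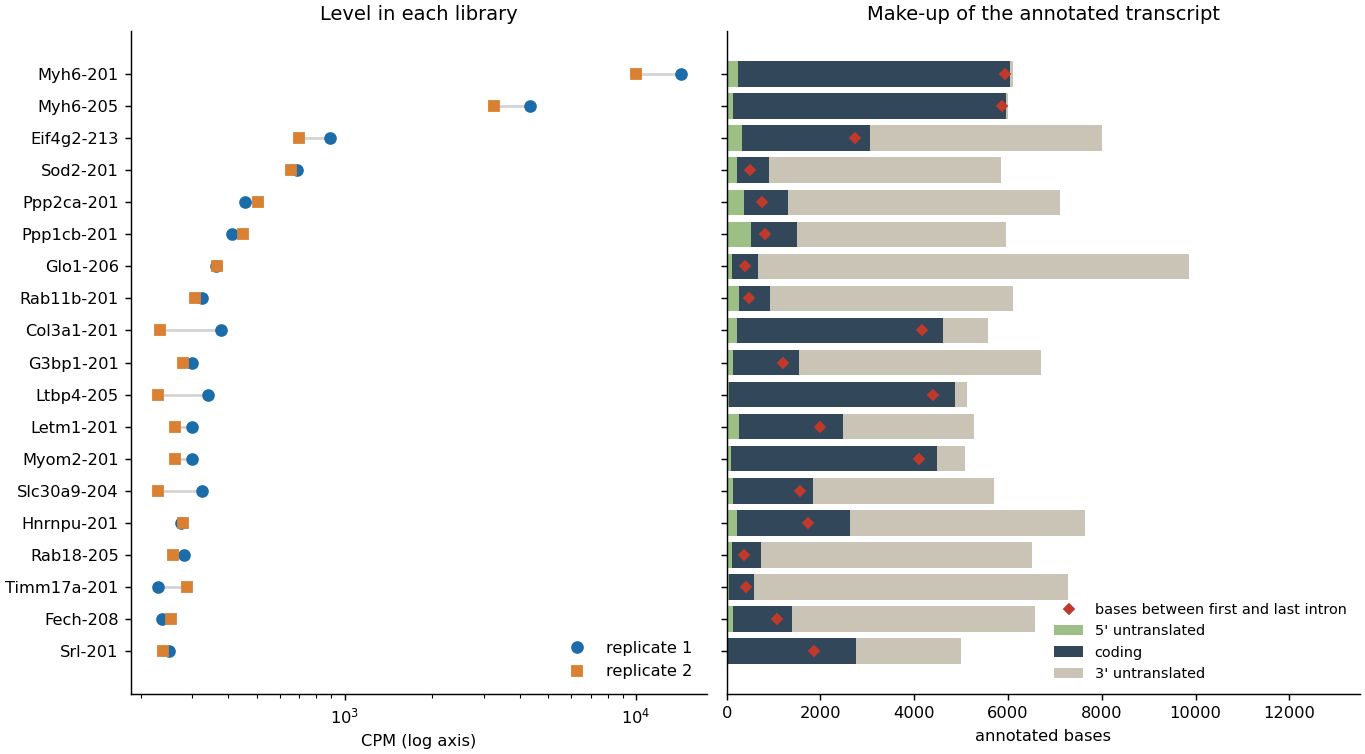
Levels in each library of 19 of the 20 long transcripts with the highest mean CPM (left, log axis) and the annotated bases of each transcript (right: 5′ untranslated, coding and 3′ untranslated parts, with diamonds at the bases of exon between the first and the last intron). Myh6-201 is the highest at 14203 CPM in replicate 1 and 9998 CPM in replicate 2, and Glo1-206 has the longest 3′ untranslated region of those plotted, 9202 bases.

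Among members read in both libraries, the 5 longest by annotation differed in how far a read must reach. D10Wsu102e-201, annotated at 123179 bases with 122583 of them 3′ untranslated, had 2 reads in replicate 1 and 3 in replicate 2, and its introns lie within 224 internal bases. D1Ertd622e-201, annotated at 40378 bases, had 1 read in each library and 90 internal bases. Ahnak-202, for the giant scaffold protein AHNAK, is annotated at 18100 bases with 16971 coding, but most of that lies in its last exon, so 456 internal bases suffice. It had 1 read in replicate 1 and 2 in replicate 2. Gm37494-202 (16021 bases) had 1 read in each library, with 508 internal bases. Tmem245-201 (15981 bases) had 9 reads in replicate 1 and 6 in replicate 2, with 2018 internal bases, close to the median of all members, 2010. Members that must be followed over many exons were also seen. Usp24-201, for a deubiquitinating enzyme, has 68 exons and 7476 internal bases and had 4 reads in replicate 1 and 3 in replicate 2. Col5a1-201, a chain of type V collagen with 66 exons, had 1 read in replicate 1 and 3 in replicate 2. Mtor-202, for the growth-controlling kinase mTOR, has 58 exons and 7648 internal bases and had 1 read in each library.

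Agreement between the libraries was tested over all 6920 known transcripts with at least 10 summed reads, by an exact two-sided binomial test with Benjamini-Hochberg adjustment. The test compares 2 libraries, not mice. Of the 503 long transcripts tested, 3 passed at an adjusted p under 0.05, against 0.621% of all known transcripts tested, and none of the 503 was called with at least a 2-fold difference as well, against 0.231%. At an unadjusted p under 0.05 the count was 49 of 503, of which 42 were higher and 7 lower in replicate 1. Over all 6920 it was 475 (6.86%), of which 230 were higher and 245 lower in replicate 1. Adjusted p by the exact binomial test was 2.64e-81 for Myh6-201, 5.90e-16 for Myh6-205 and 0.00727 for Col3a1-201. Col3a1-201, the chain of type III collagen made by fibroblasts, had 162 reads (377 CPM) in replicate 1 and 147 reads (233 CPM) in replicate 2, a log2 ratio of 0.69. All 3 were higher in replicate 1, a direction in which 0.376% of all known transcripts passed. The 5 fibroblast markers, of which Col3a1 is one, summed to 1211 CPM in replicate 1 and 965 CPM in replicate 2, and their part in the Col3a1 difference was not tested.

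The median log2 ratio of the 503 long transcripts was 0.15, against −0.01 over shorter spliced transcripts and 0.00 over all known transcripts tested. Replicate 1 was the higher library for 325 of the 503 (64.6%), against 49.1% of the shorter ones. The ratio differed with internal bases more than with annotated length. By internal bases the median was 0.05 under 500 (75 transcripts), 0.02 at 500 to 999 (87), 0.11 at 1000 to 1999 (139), 0.25 at 2000 to 2999 (97), 0.40 at 3000 to 3999 (54), 0.52 at 4000 to 4999 (28) and 0.51 at 5000 or more (23). By annotated length it was 0.19 at 5000 to 5999 bases, 0.10 at 6000 to 6999, 0.06 at 7000 to 7999 and 0.19 at 8000 to 9999. Shorter transcripts showed the same order, with medians of −0.05 under 500 internal bases, 0.19 at 2000 to 2999 and 0.25 at 3000 to 3999. The median of long transcripts with under 1000 internal bases was 0.03, and changed sign to −0.05 with library scaling by edgeR's TMM and to −0.04 with DESeq2's size factors. For 5000 internal bases or more it was 0.43 with TMM and 0.44 with DESeq2's size factors. Each scaling shifts all ratios by the same amount, so the order of the classes could not change. The median over all known transcripts tested became −0.08 with TMM and −0.06 with DESeq2's size factors. These medians are descriptions with no test, and the cause was not tested. Summing all read classes of the same genes gave smaller medians at the upper end, 0.20 at 3000 to 3999, 0.26 at 4000 to 4999 and 0.29 at 5000 or more internal bases.

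**Figure D3:**
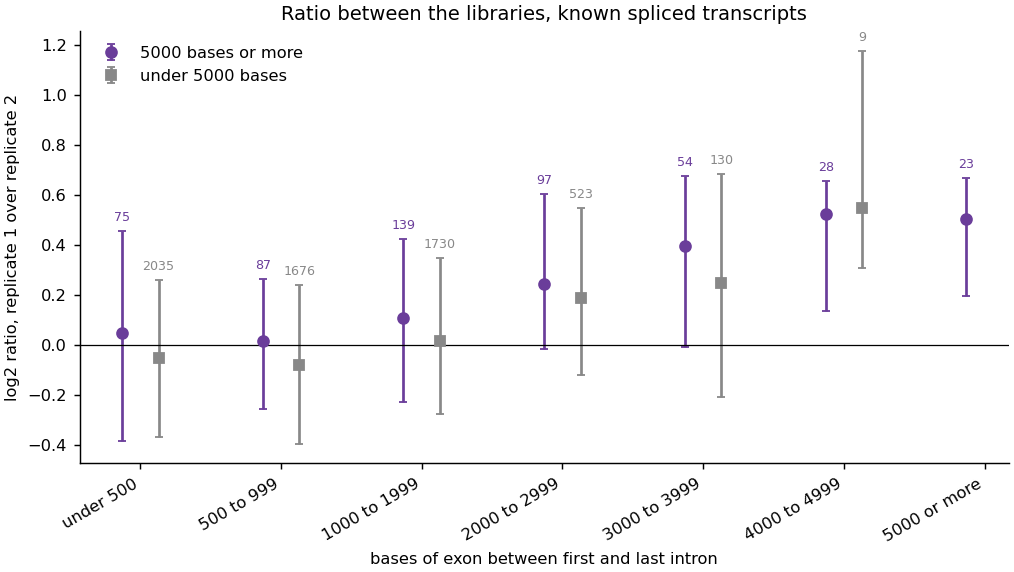
Log2 ratio of known spliced transcripts with at least 10 summed reads, replicate 1 over replicate 2, by bases of exon between the first and the last intron, for transcripts of 5000 bases or more and for shorter ones. Points are medians, bars the quartiles and the small numbers the transcripts in each class; the long set goes from 0.05 in the lowest class to 0.51 in the highest.

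The members nearest to the length minimum were set beside the transcripts just below it. Inside it lay Fbxw8-201, Mrpl19-201 and Srl-201, each of 5000 bases, with mean levels of 67.3, 22.0 and 244.6 CPM. Outside it lay Tom1l2-206 with 4999 bases and Rfc2-201 and Sh3bp4-201 with 4995 bases, with mean levels of 32.9, 30.6 and 13.3 CPM. Over the 100 tested transcripts of 5000 to 5249 bases the median log2 ratio was 0.15 and the median level 26.5 CPM. Over the 105 of 4750 to 4999 bases these were 0.22 and 24.3 CPM, and the difference was not tested.

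Members were then grouped by role, in 10 gene lists. Of the list genes, 236 have an annotated spliced transcript of at least 5000 bases, and such a transcript was read for 108 of them. Among sarcomere and Z-disc genes it was read for 9 of 18, in all 9 in both libraries, with summed levels of 19337 CPM in replicate 1 and 13886 CPM in replicate 2. Myom2-201, for a myomesin of the M-band, had 129 reads (299.8 CPM) in replicate 1 and 165 reads (262 CPM) in replicate 2. All 10 tested sarcomere transcripts were higher in replicate 1, beside 64.6% of the 503 long transcripts tested and 39 of 48 over all lists. Among long transcripts it was 23 of 28 at 4000 to 4999 internal bases and 18 of 23 at 5000 or more. Of the sarcomere transcripts 2 passed the binomial test, both of Myh6, against 0.621% of all known transcripts tested. The median log2 ratio of the sarcomere transcripts was 0.45.

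Matrix genes came next in summed level. Among them a long transcript was read for 11 of 26, with summed levels of 1058 CPM in replicate 1 and 687 CPM in replicate 2. Ltbp4-205, for a protein that binds latent TGF-beta, had 146 reads (339 CPM) in replicate 1 and 144 reads (229 CPM) in replicate 2. Col4a1-201, a basement membrane collagen chain, had 56 reads (130 CPM) in replicate 1 and 50 reads (79.4 CPM) in replicate 2. All 5 tested matrix transcripts were higher in replicate 1, beside 64.6% of all long transcripts tested, and Col3a1-201 passed. Their median log2 ratio was 0.61. Among membrane skeleton and adhesion genes a long transcript was read for 15 of 28. Lamb2-201, the laminin beta 2 chain of basement membranes, had 104 reads (242 CPM) in replicate 1 and 103 reads (164 CPM) in replicate 2. Vcl-201, for vinculin, had 17 reads (39.5 CPM) in replicate 1 and 23 reads (36.5 CPM) in replicate 2. Lamb1-201 had 22 reads (51.1 CPM) in replicate 1 and 13 reads (20.6 CPM) in replicate 2. None of the 7 tested passed, where 0.621% of all known transcripts tested did.

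Endothelial and vessel wall genes had a long transcript read for 13 of 16. Kdr-201, for the VEGF receptor 2, had 34 reads (79.0 CPM) in replicate 1 and 20 reads (31.8 CPM) in replicate 2, with an adjusted p of 0.136 by the exact binomial test. The 5 endothelial markers summed to 363 CPM in replicate 1 and 222 CPM in replicate 2, and their part in the Kdr values was not tested. Among them, over all read classes, Kdr had 112 CPM in replicate 1 and 52.4 CPM in replicate 2, and Flt1 62.8 and 23.8. Some other endothelial genes of the list differed less or were lower in replicate 1. In the same order, Tie1 had 81.3 and 76.2 CPM, Egfl7 116 and 113, Tek 39.5 and 39.7, and Adgrl4 44.2 and 55.6. Myh9-201, a non-muscle myosin, had 5 reads in replicate 1 and 9 in replicate 2, and Flt1-203, for the VEGF receptor 1, had 5 reads in replicate 1 and 6 in replicate 2. None of the 3 tested passed, where 0.621% of all known transcripts tested did.

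Ion channels, pumps and calcium handling genes had the lowest share of the protein-coding lists, with a long transcript read for 6 of 26. Camk2d-226, for a calcium-dependent kinase, had 16 reads in replicate 1 and 7 in replicate 2, and Kcnj2-201, for an inward rectifier potassium channel, had 1 read in replicate 1 and 2 in replicate 2. Both tested transcripts of the list were higher in replicate 1, and neither passed, where 0.621% of all known transcripts tested did.

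Energy metabolism genes had a long transcript read for 10 of 14, in all 10 in both libraries. Slc25a12-206, for the aspartate-glutamate carrier of mitochondria, had 73 reads (169.7 CPM) in replicate 1 and 125 reads (198 CPM) in replicate 2. Pdk1-201, for a kinase that shuts down pyruvate dehydrogenase, had 44 reads (102 CPM) in replicate 1 and 57 reads (90.5 CPM) in replicate 2. Hk2-201, for hexokinase 2, had 35 reads (81.3 CPM) in replicate 1 and 40 reads (63.5 CPM) in replicate 2. None of the 7 tested passed, where 0.621% of all known transcripts tested did.

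Signalling and scaffold genes had a long transcript read for 19 of 35, led by the adenylyl cyclase transcript Adcy5-201 with 24 reads (55.8 CPM) in replicate 1 and 26 reads (41.3 CPM) in replicate 2. The phosphodiesterase transcript Pde3a-201 had 16 reads in replicate 1 and 6 in replicate 2. Transcription, chromatin and RNA genes had a long transcript read for 15 of 37. Hnrnpu-201, for a nuclear RNA-binding scaffold protein, had 118 reads (274 CPM) in replicate 1 and 176 reads (279 CPM) in replicate 2, followed by Mef2a-208 with 8 reads in replicate 1 and 11 in replicate 2 and Foxo3-203 with 7 reads in replicate 1 and 11 in replicate 2. Ubiquitin, autophagy and trafficking genes had a long transcript read for 9 of 29. The kinesin motor transcript Kif5b-201 had 76 reads (177 CPM) in replicate 1 and 71 reads (113 CPM) in replicate 2. Fbxo32-201, for the muscle ubiquitin ligase atrogin-1, had 16 reads in replicate 1 and 30 in replicate 2, and the clathrin transcript Cltc-202 had 6 reads in replicate 1 and 9 in replicate 2. Of these 3 lists 7, 4 and 3 transcripts were tested, in the order given. None passed, where 0.621% of all known transcripts tested did. Of the 7 long non-coding RNA genes with an annotated long spliced transcript, 1 was read, Tug1-201 with 0 reads in replicate 1 and 1 in replicate 2.

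Some list genes had reads but none in a long transcript. Of the 128 list genes with an annotated long transcript but no read of one, 13 had no read of any class, and 19 had at least 20 reads of all classes in each library. For 12 of these 19 no read at all fell in a known transcript. Ttn, the giant spring protein titin, had 55 reads in replicate 1 and 105 in replicate 2, none of them in a known transcript, and its longest annotated transcript measures 106824 bases. Ryr2, the calcium release channel, had 50 reads in replicate 1 and 80 in replicate 2, with no known read in either library. Atp2a2, the pump that returns calcium to its store, differed from these: 4363 reads in replicate 1 and 5112 in replicate 2 were in its shorter known transcripts, and none was in its 1 annotated long transcript. In the reads of Mbnl2, a splicing factor, 88.7% in replicate 1 and 84.6% in replicate 2 were in models that join annotated splice sites in combinations absent from GENCODE M21.

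Over the 333 genes with a long known transcript and at least 20 reads in each library, 56.2% of reads in replicate 1 and 55.4% in replicate 2 followed a known transcript, a mean of 55.8% ± 0.552 (SD, n = 2). In the 2825 genes with shorter known spliced transcripts only, a set not matched for internal bases, these were 80.6% in replicate 1 and 80.1% in replicate 2. Incomplete splice matches, which follow a run of the introns of an annotated transcript but not all of them, took 18.7% in replicate 1 and 20.1% in replicate 2. Over the incomplete reads of all 1559 genes with a long known transcript, whatever their depth, 87.6% in replicate 1 and 86.8% in replicate 2 matched the 3′ end of the transcript and lacked introns at the 5′ end. For Myh6 51.1% of 15700 reads in replicate 1 and 48.3% of 17418 reads in replicate 2 were in known transcripts. Its incomplete matches took 22.1% in replicate 1 and 26.0% in replicate 2. New combinations of annotated splice sites took 24.0% of its reads in replicate 1 and 23.9% in replicate 2.

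The known share was also compared across classes of internal bases. Genes were classed by the internal bases of their annotated transcript with the longest coding part, where that transcript has at least 5000 bases. In the median gene, known transcripts took 89.6% of reads in replicate 1 and 91.1% in replicate 2 for under 500 internal bases (30 genes), and 63.9% in replicate 1 and 59.3% in replicate 2 at 2000 to 2999 (64 genes). At 5000 internal bases or more (54 genes) the median was 7.60% in replicate 1 and 7.86% in replicate 2, and 16 genes in replicate 1 and 12 in replicate 2 had no known read. The pooled share of that class was far above its median, 45.8% in replicate 1 and 42.0% in replicate 2, as Myh6 holds most of its reads. Known shares were also lower with more internal bases in genes whose transcript with the longest coding part has under 5000 bases. Under 500 internal bases (906 genes) their median was 92.2% in replicate 1 and 92.3% in replicate 2. At 2000 to 2999 (266 genes) it was 74.6% in replicate 1 and 71.3% in replicate 2. At 3000 to 3999, in the same order, it was 54.8% and 48.4% in 84 such genes, and 52.1% and 37.0% in the 37 genes of the longer kind.

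**Figure D4:**
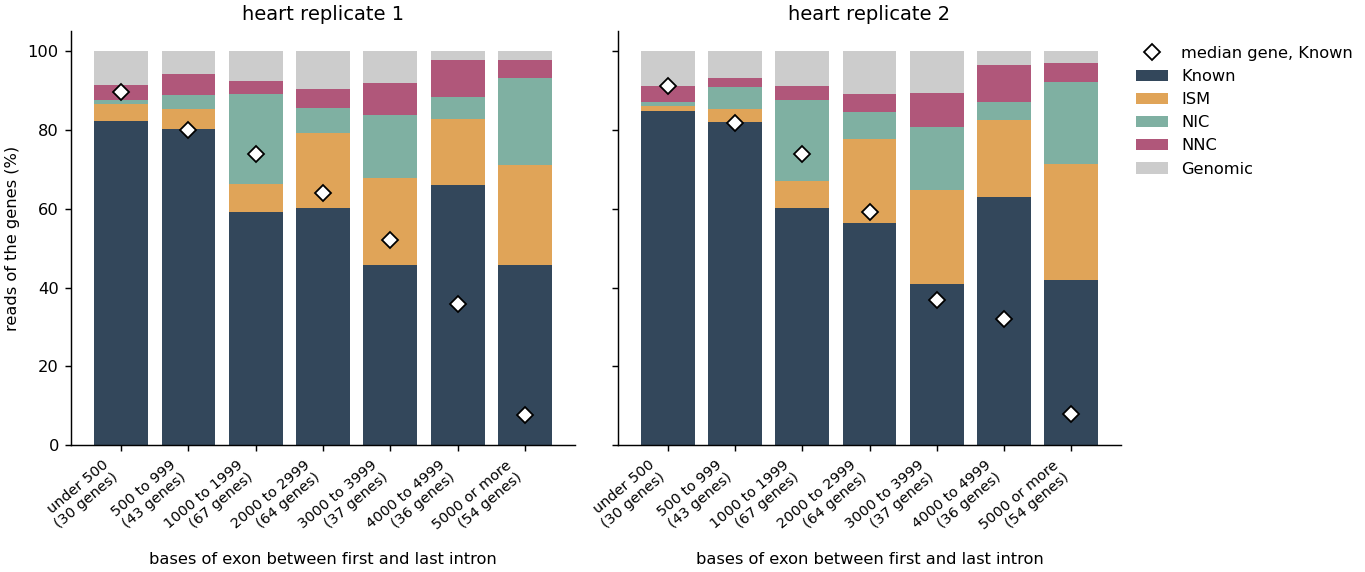
Reads of genes by model class in each library, in percent, for genes whose annotated transcript with the longest coding part has at least 5000 bases, by its bases of exon between the first and the last intron. Known follows an annotated transcript, ISM is an incomplete splice match, NIC a new combination of annotated splice sites, NNC a model with a splice site outside the annotation and Genomic a model that does not follow the splice sites; diamonds mark the known share of the median gene, which is 89.6% in replicate 1 and 91.1% in replicate 2 in the lowest class, and 7.60% in replicate 1 and 7.86% in replicate 2 in the highest.

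Of the 1559 genes, 452 also had reads of another, shorter or single-exon known transcript. The share held by long transcripts was tested between the libraries by Fisher's exact test in the 98 genes with at least 20 known reads in each. None was called or passed at an adjusted p under 0.05 (0% of 98), 5 had an unadjusted p under 0.05, and the smallest adjusted p was 0.266. The median share was 83.0% in replicate 1 and 79.6% in replicate 2. Long transcripts held over 90% in both libraries in 39 genes, under 10% in both in 16, and a share between these in 43. Among the 6 genes with most known reads, Myh6 was almost wholly long, with 99.2% of 8028 known reads in replicate 1 and 99.2% of 8410 in replicate 2. Eif4g2 had 99.5% of 385 reads in replicate 1 and 100% of 439 reads in replicate 2, and Glo1 had 96.9% of 161 reads in replicate 1 and 97.0% of 237 reads in replicate 2. Srl, which encodes sarcalumenin, which binds calcium in the sarcoplasmic reticulum, was mixed, with 63.2% of 171 reads in replicate 1 and 64.1% of 234 reads in replicate 2. Adprhl1 and Myzap were almost wholly short, with 0.690% of 290 and 0.379% of 264 reads in replicate 1, and 0.398% of 502 and 0% of 444 reads in replicate 2.

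Cassette exons were compared in pairs of known transcripts that differ by 1 internal exon, with at least 10 reads of the pair in each library. Of 594 such pairs, 57 contained a long transcript, from 52 genes. By Fisher's exact test with adjustment over all 594 pairs none of the 57 was called (0% of 594), all 57 had an adjusted p of 1, and 2 had an unadjusted p under 0.05. Inclusion was over 80% in both libraries for 25 of the 57, under 20% in both for 9, and otherwise in 23. The Slc30a9 exon shown above was included in 140 of 149 reads in replicate 1, 94.0% (Clopper-Pearson 95% interval 88.8 to 97.2), and in 144 of 155 reads in replicate 2, 92.9% (87.7 to 96.4). The Myom1 exon was mostly skipped, with inclusion in 7 of 110 reads in replicate 1, 6.36% (2.60 to 12.7), and in 6 of 113 reads in replicate 2, 5.31% (1.97 to 11.2).

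A further 5 of the 8 exons with most reads were mostly included as well. For Fech, which makes heme in its last step, inclusion was 98.1% in replicate 1 and 98.2% in replicate 2, and for Zfand5 it was 96.1% in replicate 1 and 99.1% in replicate 2. Dnajc15, a co-chaperone of mitochondria, had 100% in replicate 1 and 96.2% in replicate 2, and Tmem214 had 98.2% in replicate 1 and 98.8% in replicate 2. Mprip, which binds myosin phosphatase, had 85.4% in replicate 1 and 91.4% in replicate 2. In Fech, Zfand5, Dnajc15 and Tmem214 only the transcript that includes the exon is long. The Vldlr and Mef2a exons had fewer reads. The Vldlr exon was included in 24 of 24 reads in replicate 1 (95% interval 85.8 to 100) and in 34 of 37 reads in replicate 2, 91.9% (78.1 to 98.3). The Mef2a exon was included in 8 of 11 reads in replicate 1 and in 11 of 17 reads in replicate 2, and these counts leave wide intervals. Of the 44 wholly coding cassette exons of long transcripts, 32 (72.7%) were a multiple of 3 bases, against 216 of 336 (64.3%) in pairs of shorter transcripts.

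**Figure D5:**
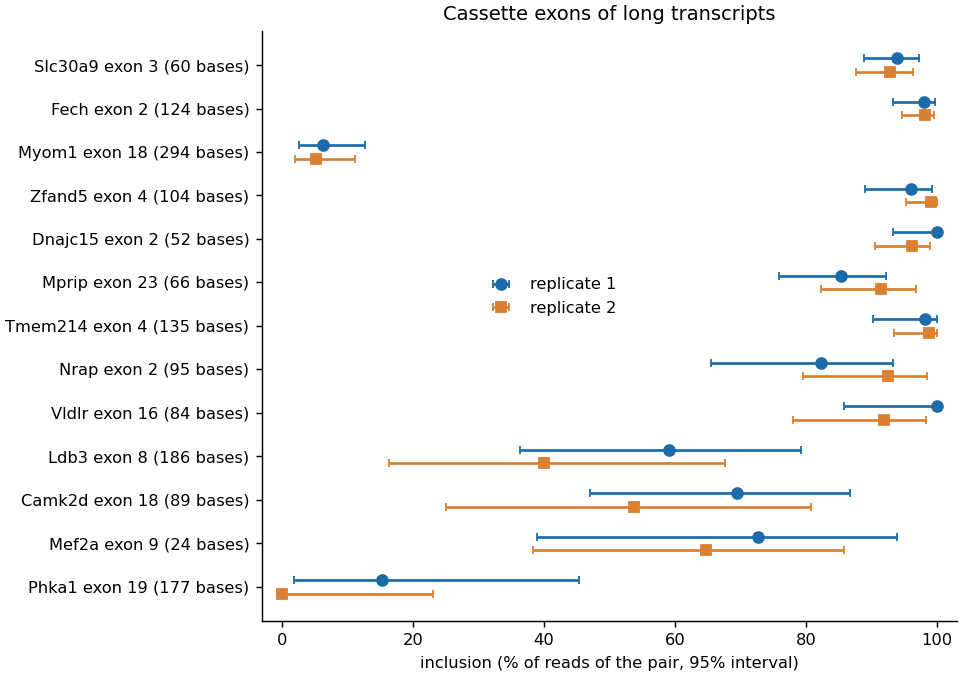
Inclusion of cassette exons in each library, in percent of the reads of the pair, with Clopper-Pearson 95% intervals that cover counting error only. The upper 7 are among the 8 tested exons of long transcripts with most reads of the pair, the lower 6 the other tested exons in genes of the lists; the Myom1 exon is at 6.36% in replicate 1 and 5.31% in replicate 2.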

How the data were processed

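Long-read RNA-seq counts from 2 heart libraries of a single group were used. The deposited tables hold whole-number read counts per transcript model, 1 table per library, neither normalized nor pooled. Reads were aligned to mm10 and compared with GENCODE M21, per the README texts deposited with them. The aligner, read correction and program versions are not given in the sources used here, nor is strand assignment, so overlapping and near-identical genes are uncertain. Replicate 1 held 454069 reads and replicate 2 held 661958. A value rests on few reads for most members, and intervals are exact and cover counting error only.

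Rows of either table that met the rule were joined by transcript. Lengths, coding parts and intron chains came from GENCODE M21. CPM used the nuclear totals, and log2 ratios, replicate 1 over replicate 2, had 0.5 reads added. With no second group, libraries were compared by an exact two-sided binomial test (at least 10 summed reads) and Fisher's exact tests, each with Benjamini-Hochberg adjustment over the whole table. Calls needed an adjusted p under 0.05 and a 2-fold difference or 10 percentage points. Tests were tested on simulated data. Python 3.11.15, scipy 1.17.1, edgeR 4.0.16 and DESeq2 1.42.0 were used, the last pair for scaling only.

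Named transcripts were the 20 highest, the 3 highest of each of 10 lists, the 5 longest and 3 with most exons read in both libraries, those that passed a test, the 6 tested genes with most known reads, the 8 cassette exons with most reads and the 3 nearest to 5000 bases on each side. A few items that this rule names are not reported here. Members and lists were chosen with earlier results of these data known. The 306 list symbols were matched to the annotation, with 305 found. Alternatives covered length and read minimums, denominators, scaling, leaving out each replicate and, added after seeing the data, leaving out Myh6.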

Additional observations from a re-analysis of the deposited data

How the results depend on the processing

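No paired analysis was possible because the series holds 1 group. Of 43 alternatives over 7 results, 28 stayed close to the value reported, by a rule set for each result. For the shares, close meant within 1 SD, which leaving out 1 of 2 libraries always meets, so those alternatives test nothing. For the number read, close meant within 1.5-fold. A stricter adjusted p could not raise a count of 0. The share of known spliced reads in long transcripts (6.05%) was 12.2% with a length minimum of 4000 bases, 4.10% with 6000, 4.27% of all mouse reads and 3.97% without Myh6. Leaving out each replicate gave 5.47% to 6.63%. The 1716 transcripts read became 3391 with a minimum of 4000 bases, 942 with 6000, 822 with at least 5 summed reads and 1137 with a read in each library, and 1393 to 1460 with a replicate left out. The median log2 ratio of 0.15 was 0.076 with TMM and 0.089 with DESeq2 scaling, which moved all ratios alike. With a 1.5-fold minimum, 1 long transcript was called, Col3a1-201, and the other alternatives for that count gave 0. Counting incomplete splice matches by model length gave 4 called genes for the share held by long transcripts (Clic5, Cmya5, Dsp and Tsc2) among 291 tested, where the known reads alone gave 0; the cause was not tested. The known share of reads in long-transcript genes (55.8%) was 58.5% without genomic models, 54.7% in genes led by a long transcript and 60.1% without Myh6, and 55.4% to 56.2% with a replicate left out. Cassette exon calls stayed at 0 in the 3 alternatives run. Depth limits most members: 1213 of 1716 had under 10 reads and were not tested.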

Other observations

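Members outside the protein-coding class were few. The 5 lincRNA transcripts were led by 1700020I14Rik-202, with 56 reads in replicate 1 and 61 in replicate 2, annotated at 8300 bases with 253 internal bases. The 13 retained-intron transcripts were led by Dnajb5-206, with 8 reads in replicate 1 and 7 in replicate 2, and 6 transcripts were annotated as subject to nonsense-mediated decay. These transcripts were named after their values were seen, for their read counts.

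Reads that follow introns over at least 7000 internal bases were rare. They fell on 35 transcripts, with 60 reads in replicate 1 and 47 in replicate 2, and 15 of the 35 were read in both libraries. The highest was Myo18b-201, for a myosin that muscle needs to build sarcomeres, with 44 exons and 7951 internal bases. It had 7 reads in replicate 1 and 8 in replicate 2. The most exons of any member, 77, were those of Dync1h1-201, the dynein heavy chain, with 0 reads in replicate 1 and 3 in replicate 2 over 13556 internal bases. These examples were chosen after their values were seen.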
